A study of Mus musculus with 3 samples.

Results

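The C/D box small nucleolar RNAs (snoRNAs) named Snord were followed in the chromatin-associated RNA of mouse macrophages. Genes were taken by name, as every gene whose symbol starts with Snord, which gave 99 of the 55536 annotated genes under 98 symbols, since 2 genes share the name Snord80. Of these, 98 were annotated as snoRNA and 1, Snord43, as miRNA, and each gene had a single annotated transcript of 64 to 238 bases (median 84). The macrophages were grown from bone marrow, and the mice were of strain C57BL/6J. The labels describe 1 group: cells exposed to lipid A at 100 ng/ml for 12 h, then washed and left for 12 h, then exposed again at 100 ng/ml for 30 min before the chromatin fraction was taken. Lipid A is the part of bacterial lipopolysaccharide that activates the receptor TLR4. The 3 biological replicates were separate biosamples under 1 shared donor identifier. P-values over them test a mean level against a fixed floor, with the spread between these samples as the error. That spread was estimated with information shared over all genes tested. RNA input was 1 µg, 250 ng and 500 ng for replicates 1, 2 and 3, so input cannot be told apart from replicate. No cells without lipid A were analysed here, so levels were set against a fixed floor of 1 CPM (counts scaled to a common library total, after TMM scaling, with no length correction) and cannot be read as a response.

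C/D box snoRNAs are short RNAs with a C box near the 5′ end and a D box near the 3′ end. They join fibrillarin, Nop56, Nop58 and Snu13 in a particle that methylates the ribose of a target base, mostly in ribosomal RNA, chosen by pairing with the guide stretch upstream of the D box. A few members, such as the RNAs also known as U8, U13, U14 and U22, take part in cutting and folding the ribosomal RNA precursor. Most vertebrate snoRNAs lie in introns of other genes and are released when the spliced intron is debranched and trimmed, so the nascent host transcript and the finished snoRNA share sequence. In these data, a fragment of an unspliced host and a fragment of a free snoRNA cannot be told apart, nor can fewer cells and less RNA per cell.

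The 4 members with the most counts are shown first, as read from the mm10 transcripts of GENCODE M21, 5′ to 3′ and written as DNA. Capitals mark the first match to the C box letters NTGATGA within the first 20 bases and the last match to the D box letters CTGA within the last 15. Snord17 lies at chr2:144265979-144266216 on the minus strand in an intron of Snx5, a sorting nexin gene. Snord15b (chr7:99479563-99479707) and Snord15a (chr7:99482785-99482932) lie on the minus strand in introns of Rps3, a gene of the small ribosomal subunit, and a retained-intron transcript of Rps3 covers the whole of Snord15b. Snord22 (chr19:8725866-8725991, plus strand) lies in Snhg1, a noncoding snoRNA host gene, and 3 retained-intron transcripts of Snhg1 cover it.
Snord17: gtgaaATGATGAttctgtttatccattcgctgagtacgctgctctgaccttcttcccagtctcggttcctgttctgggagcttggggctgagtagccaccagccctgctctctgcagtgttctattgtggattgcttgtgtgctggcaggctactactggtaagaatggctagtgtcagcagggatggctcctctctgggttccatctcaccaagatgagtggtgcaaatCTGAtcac
Snord15b: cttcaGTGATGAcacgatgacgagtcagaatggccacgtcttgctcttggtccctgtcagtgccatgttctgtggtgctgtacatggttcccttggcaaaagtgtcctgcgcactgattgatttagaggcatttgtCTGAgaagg
Snord15a: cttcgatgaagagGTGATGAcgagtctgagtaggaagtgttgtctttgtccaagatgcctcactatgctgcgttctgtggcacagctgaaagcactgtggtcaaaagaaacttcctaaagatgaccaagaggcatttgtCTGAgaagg
Snord22: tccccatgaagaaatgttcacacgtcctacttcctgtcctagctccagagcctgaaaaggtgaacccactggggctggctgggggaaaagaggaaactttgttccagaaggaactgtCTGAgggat

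Snord15a and Snord15b were identical at 107 of 162 alignment columns (66.0%), and no C box match was found in the first 20 bases of Snord22. Across the family the C box letters were found in 69 of 99 genes (69.7%), the D box letters in 92 (92.9%) and both in 68 (68.7%). Among all 141416 other annotated transcripts of at least 60 bases, the same windows held a C box in 0.631%, a D box in 7.05% and both in 0.207%. Among the 42 Snora genes (H/ACA snoRNAs, which guide pseudouridylation), 0 held the C box and 3 the D box. A missing match says only that these letters were not in the window.

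The RNAs of the ribosomal RNA precursor list and of the Rpl13a locus carry results further down. Snord118 (U8; chr11:69073427-69073561, plus strand) lies in no annotated host. Snord14c (chr9:40803583-40803668), Snord14d (chr9:40803995-40804080) and Snord14e (chr9:40804748-40804837) are U14 genes on the plus strand in Hspa8, a gene of a constitutive chaperone, and a retained-intron transcript covers each of them. Snord14c and Snord14d were identical at 84 of 86 alignment columns, so their counts can be split by the authors' counting and are uncertain one by one.
Snord118: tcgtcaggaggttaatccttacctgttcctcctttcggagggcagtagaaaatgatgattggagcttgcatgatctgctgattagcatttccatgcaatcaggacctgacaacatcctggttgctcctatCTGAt
Snord14c: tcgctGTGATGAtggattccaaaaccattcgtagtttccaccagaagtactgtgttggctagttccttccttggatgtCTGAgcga
Snord14d: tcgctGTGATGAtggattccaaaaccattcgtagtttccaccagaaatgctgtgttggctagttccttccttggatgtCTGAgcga
Snord14e: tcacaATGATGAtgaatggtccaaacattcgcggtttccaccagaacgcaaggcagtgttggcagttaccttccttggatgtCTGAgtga

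The 4 snoRNAs of Rpl13a, a gene of the large ribosomal subunit, lie within a short stretch of the minus strand of chromosome 7. They are Snord32a (chr7:45127382-45127464), Snord33 (chr7:45126864-45126947), Snord34 (chr7:45126601-45126670) and Snord35a (chr7:45126346-45126435). Snord21 (chr5:107904555-107904648, plus strand), in Rpl5, had the most counts of the members under 100 bases. Snord116l1 (chr7:59894620-59894713, minus strand) stands for the 17 Snord116 genes of the imprinted Snhg14 locus.
Snord32a: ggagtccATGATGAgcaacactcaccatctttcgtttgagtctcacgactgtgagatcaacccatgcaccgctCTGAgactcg
Snord33: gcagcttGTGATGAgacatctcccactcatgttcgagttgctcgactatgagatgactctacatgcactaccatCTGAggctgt
Snord34: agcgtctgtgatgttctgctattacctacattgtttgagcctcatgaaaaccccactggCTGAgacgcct
Snord35a: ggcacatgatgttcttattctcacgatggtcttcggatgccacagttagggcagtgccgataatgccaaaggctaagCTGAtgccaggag
Snord21: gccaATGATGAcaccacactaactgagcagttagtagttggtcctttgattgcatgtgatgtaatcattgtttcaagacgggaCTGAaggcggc
Snord116l1: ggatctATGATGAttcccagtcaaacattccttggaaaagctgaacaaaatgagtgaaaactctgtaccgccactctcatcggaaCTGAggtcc

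Total expected counts were 12532722, 18395358 and 18237730 in replicates 1, 2 and 3. Ribosomal RNA genes, including the locus Gm26917, held 9.71%, 18.6% and 16.3% of the gene counts. All 7 macrophage markers (such as Adgre1, Csf1r and Lyz2) were called above 1 CPM, with a summed level of 1017 to 1097 TPM per library. The summed level was 0 to 0.26 TPM for 3 T and B cell markers, 0 to 0.31 TPM for 3 neutrophil markers and 0.31 to 0.57 TPM for 4 neuronal markers. The 3 stromal, endothelial and epithelial markers reached 1.14 to 2.59 TPM. In the gene tables Epcam was at 0 and Pecam1 was called above 1 CPM. In the second tables Pecam1 had a mean of 16.3 CPM, Col1a1 8.12 CPM, Epcam 0.390 CPM and the neuronal marker Syp 2.43 CPM, and 2 of the 3 and 1 of the 4 neuronal markers were called above 1 CPM. The part of other cells in the snoRNA levels was not tested.

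Each library had a gene table of expected counts and a second transcript table of estimated counts, and these differed in how many snoRNAs had counts. In the gene tables, 94 of the 99 Snord genes were listed at 0 in every library. The same 94 genes were also listed with an effective length of 0 in every library, which is the number of positions at which a fragment of the library's lengths could start. Of small RNA genes typed snoRNA, snRNA, miRNA or misc_RNA, the shortest with an effective length above 0 had 125, 129 and 127 bases in replicates 1, 2 and 3. The labels give a size range of 250-400 for the libraries, and every Snord gene is shorter than its lower end. In the second tables no member had an effective length of 0: the range was 13.8 to 79.7 bases. There 64 members had a rounded estimated count above 0 in at least 1 library and 50 in all 3. An effective length of 0 did not always go with a count of 0: Snord22 had counts in replicates 2 and 3 at an effective length of 0, and the shortest small RNA genes with a count had 110, 110 and 107 bases. Snord118 was at 0 in replicates 2 and 3 at effective lengths above 0. Snord89, with 110 bases, was at 0 in the gene tables and had 130, 162 and 220 estimated counts in the second tables. A 0 in the gene tables is therefore not read as absence, and levels of the shorter members below come from the second tables. For a member whose reads match no other transcript, a count of 0 allows up to 3 counts in the second tables. This comes to 0.149, 0.0889 and 0.103 CPM in replicates 1, 2 and 3, for counting error only.

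**Figure D1:**
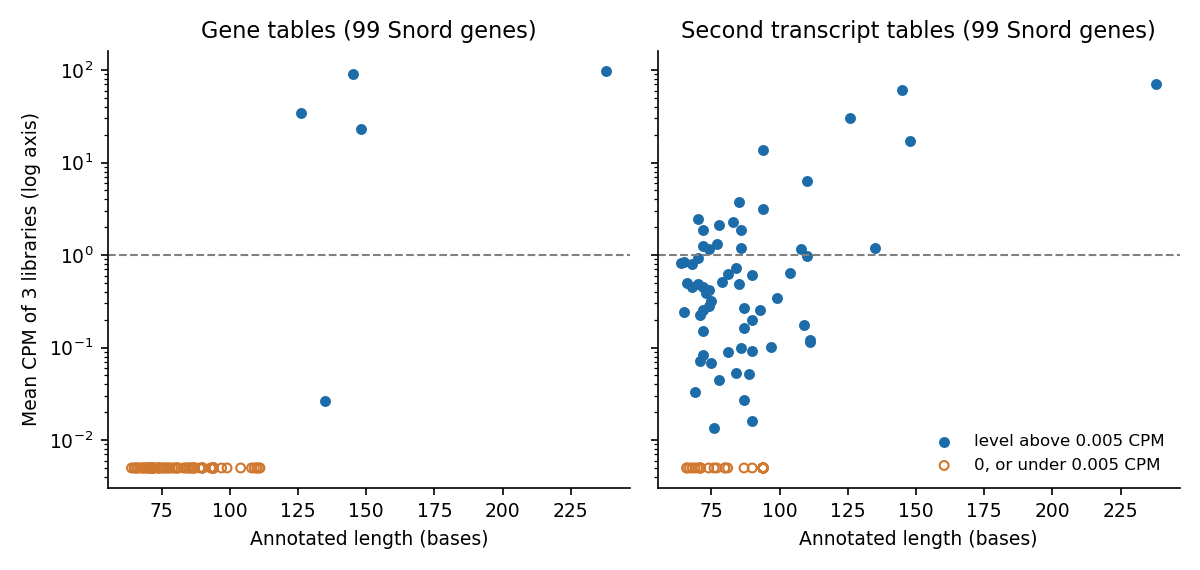
Mean CPM over 3 libraries (log axis) against annotated length in bases for the 99 Snord genes, in the gene tables (left) and the second transcript tables (right). Filled points are levels above 0.005 CPM, open points are at 0 or under it, and the dashed line is 1 CPM. In the gene tables the 5 filled points are those of 126 to 238 bases, and in the second tables members of all lengths have levels.

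Detection went with length in the gene tables. There, 0 of 42 members under 80 bases, 0 of 45 of 80 to 99 bases, 4 of 11 of 100 or more but under 150 bases and the single member over 150 bases had a count. In the second tables the same classes gave 29 of 42, 23 of 45, 11 of 11 and 1 of 1. The class of 80 to 99 bases holds the 17 Snord116 genes, which were all at 0. Snora genes are longer, with 37 under 150 bases and 5 of 150 or more, and 27 of 42 had a count in the gene tables and 39 of 42 in the second tables. Of the other small RNA genes, 0 of 1091 under 80 bases had a count in the gene tables and 378 of 1091 in the second tables.

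In the gene tables, 4 of the 5 Snord genes that could be tested were called above 1 CPM by edgeR's quasi-likelihood test with Benjamini-Hochberg adjustment at 0.05, beside 52.3% of all 24161 genes tested. They were Snord17, Snord15b, Snord22 and Snord15a. The fifth, Snord118, was called below it, beside 36.3% of all genes tested. That call rests on 1 count in replicate 1 and 0 in replicates 2 and 3. The 5 tested genes are the 5 longest members, of 126 to 238 bases, so their calls say nothing about the other 94.

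Snord17 had the most counts of the family. Its expected counts were 1653, 1601 and 1388 in replicates 1, 2 and 3, or 131, 84.8 and 80.2 CPM (98.6 ± 28.1, mean ± SD, n = 3 libraries, as for the values that follow). Replicate 1 stood above replicates 2 and 3, which were close to each other. In log2 units it lay 6.62 above the floor of 1 CPM (edgeR, adjusted p = 1.51e-22). Snord15b followed with expected counts of 1590, 1305 and 1331, or 126, 69.1 and 76.9 CPM (90.6 ± 30.8). Replicate 1 was again the highest, and the level was 6.50 above the floor (edgeR, adjusted p = 7.54e-22). Snord22 (U22) had 378, 674 and 636 expected counts, or 29.9, 35.7 and 36.7 CPM (34.1 ± 3.65), with replicate 1 the lowest. It lay 5.09 above the floor (edgeR, adjusted p = 8.68e-20). Snord15a had 353, 379 and 366 counts, or 28.0, 20.1 and 21.1 CPM (23.1 ± 4.29), and lay 4.53 above the floor (edgeR, adjusted p = 9.35e-18). Within the Rps3 pair, Snord15b was above Snord15a in every library.

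The deposited TPM (which divides a count by the effective length and then rescales every library to the same total) of these genes did not follow their counts. Snord22 had 30919 TPM in replicate 1, where its effective length was 1.13 bases, and 0 TPM in replicates 2 and 3, where the effective length was listed as 0 although 674 and 636 counts stood beside it. Snord15b had 35038, 29972 and 26206 TPM at effective lengths of 4.20, 2.73 and 3.41 bases. Snord17 had more counts than Snord15b but only 3092, 3169 and 2452 TPM, at effective lengths of 49.5, 31.6 and 38.0 bases. Snord15a had 6671, 7514 and 6236 TPM. The order of Snord17 and Snord15b thus depended on the scale, and CPM, which carries no length correction, was used for calls.

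**Figure D2:**
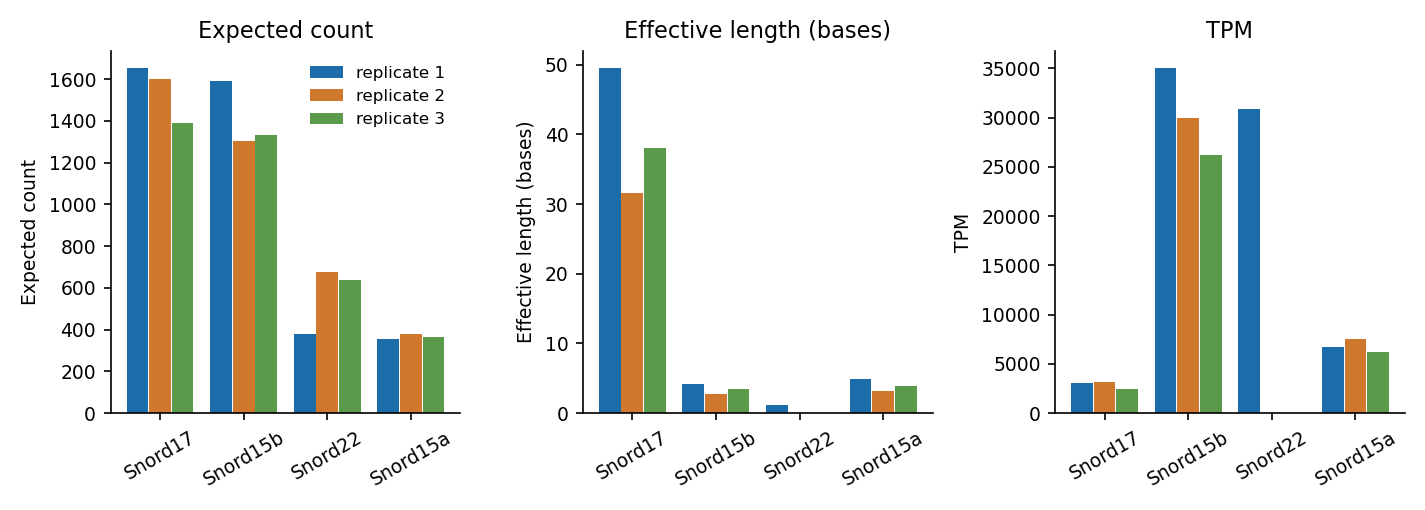
Expected count, effective length in bases and TPM in the gene tables (bars, 1 per library) for Snord17, Snord15b, Snord22 and Snord15a. The count of Snord22 is 378 to 674 in the 3 libraries, while its TPM is 30919 in replicate 1 and 0 in replicates 2 and 3.

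The second transcript tables gave levels for many more members. Of the 64 Snord genes tested there, 13 were called above 1 CPM by edgeR, beside 55.8% of all 34110 genes tested. Another 38 were called below it, beside 33.8% of all genes tested. The remaining 13 could not be placed on either side, and 35 were not tested because their counts rounded to 0 in every library. The median level was 0.116 CPM over the 99 Snord genes, 0.427 CPM over the 42 Snora genes, 2.10 CPM over the 9 Scarna genes (Cajal body RNAs, which guide changes in spliceosomal RNA) and 3.06 CPM over 22028 protein-coding genes. All genes together had a median of 0.112 CPM. CPM carries no length correction, so these medians compare counts, and a short gene offers fewer places for a fragment to start.

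The same 4 members had the most counts here too. Snord17 had 91.1, 62.6 and 58.1 CPM (70.6 ± 17.9), Snord15b 86.3, 43.4 and 52.8 CPM (60.9 ± 22.5), Snord22 26.9, 30.2 and 33.7 CPM (30.3 ± 3.41) and Snord15a 20.7, 14.1 and 16.04 CPM (16.9 ± 3.39). Within each of the 4, the order of the libraries was the same as in the gene tables. Estimated counts were 1.22 times the expected counts for Snord17, 1.12 times for Snord15b, 1.51 times for Snord22 and 1.24 times for Snord15a.

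Snord21, a member of 94 bases listed at 0 in the gene tables, came next. Its estimated counts were 359, 269 and 436, or 17.9, 7.97 and 14.9 CPM (13.6 ± 5.08). Replicate 2 was the lowest, and all libraries were above the floor by a mean of 3.76 in log2 units (edgeR, adjusted p = 3.11e-11). Snord89, in the noncoding gene Gm15832, had 130, 162 and 220 counts, or 6.47, 4.80 and 7.54 CPM (6.27 ± 1.38). Snord71, in Ap1g1, had 69, 140 and 104 counts and 3.43, 4.15 and 3.56 CPM (3.71 ± 0.38). Snord83b, in Rpl3, had 37, 137 and 101 counts and 1.84, 4.06 and 3.46 CPM (3.12 ± 1.15), with replicate 1 the lowest. Snord71 was above Snord83b in every library, but by little in replicates 2 and 3, and their spreads overlap, so their order is not resolved.

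Per length, on the TPM of the second tables, the order at the top changed. Snord15b came first with 4496, 2087 and 2319 TPM (2967 ± 1329), with replicate 1 far above replicates 2 and 3. Snord22 followed with 1887, 1916 and 1934 TPM (1912 ± 23.9) and hardly varied between libraries. Snord17, first by counts, had 1513, 1013 and 866 TPM (1130 ± 339). Snord21 had 1521, 657 and 1057 TPM (1078 ± 432), so that Snord17 and Snord21 did not differ beyond their spread. Snord15a had 1029, 648 and 670 TPM (782 ± 214), and Snord89 had 532, 369 and 505 TPM (469 ± 87.4). From Snord71 (291 ± 51.4 TPM) through Snord83b, Snord104, Snord32a, Snord53 and Snord49b to Snord14d (143 ± 31.5 TPM) the order by TPM was that by CPM.

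The other called members lay near the floor. Snord104, which has no annotated host, had 2.24, 2.19 and 2.98 CPM. Snord53, in Wdr43, had 2.34, 1.98 and 1.95 CPM. Snord49b, in the noncoding gene 2410006H16Rik, had 1.64, 2.10 and 1.88 CPM. Snord32a and Snord14d are described with their lists below. From Snord71 down to Snord14d the means ran from 3.71 to 1.87 CPM, and neighbours in that order did not differ beyond their spread. Of members of similar level that made no call, Snord49a, in the same host as Snord49b, had 0.896, 1.42 and 1.41 CPM (log2 level 0.33, edgeR, adjusted p = 0.189). Snord43, in Rpl3, had 0.846, 1.81 and 0.857 CPM, with replicate 2 alone above 1 CPM.

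**Figure D3:**
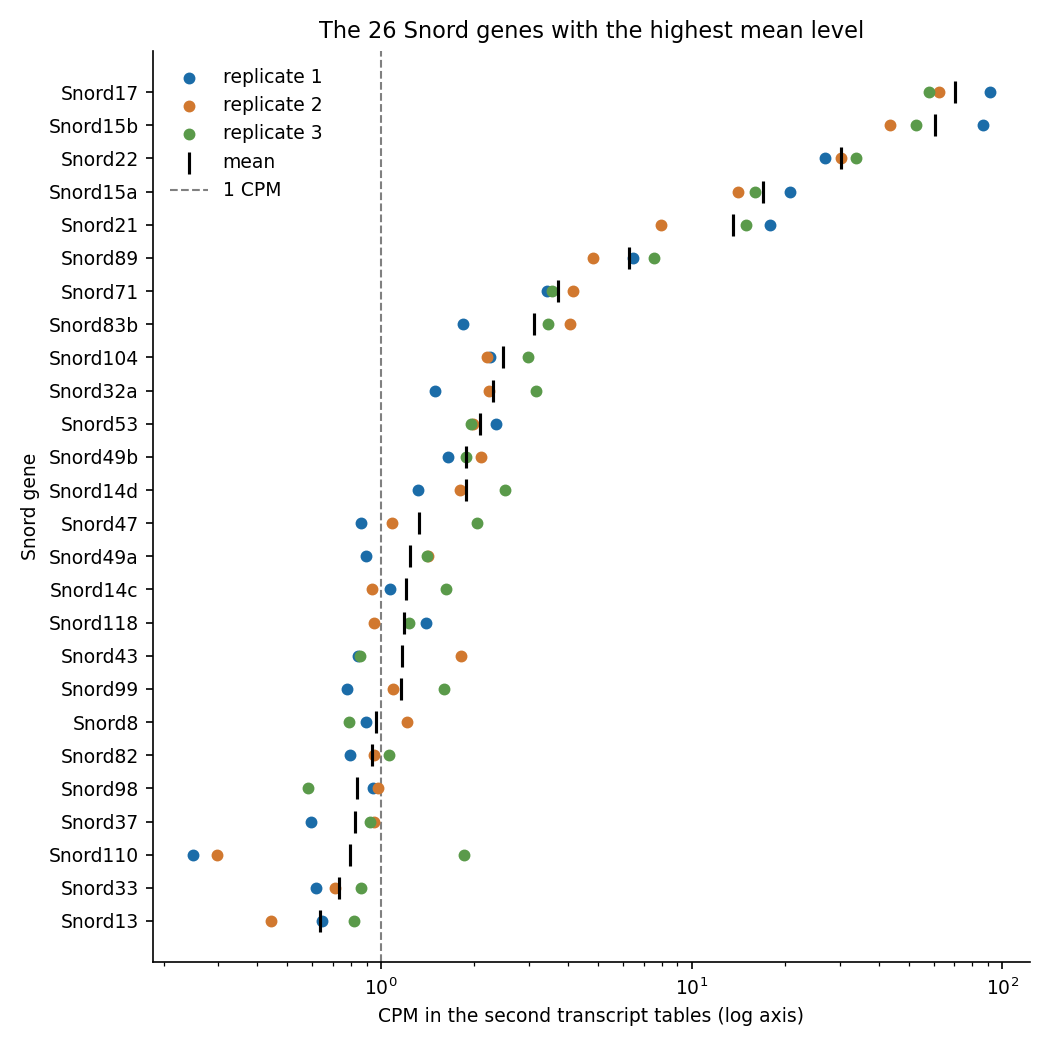
CPM in the second transcript tables (log axis) for the 26 Snord genes with the highest mean, 1 point per library and a tick at the mean, with 1 CPM dashed. Snord17, Snord15b, Snord22, Snord15a and Snord21 stand apart at means of 13.6 to 70.6 CPM, and Snord110 has 1 library, replicate 3, far to the right of the others.

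Counts were concentrated in few members. In the second tables the 4 highest genes held 79.9%, 74.1% and 70.0% of all Snord counts in replicates 1, 2 and 3, and the 10 highest held 91.8%, 86.7% and 85.6%. The whole family held 0.0320%, 0.0216% and 0.0205% of the gene table counts in replicates 1, 2 and 3 (95% Wilson intervals 0.0311 to 0.0331, 0.0210 to 0.0223 and 0.0198 to 0.0211; 0.0247 ± 0.00638 over libraries). In the second tables the share was 0.0288%, 0.0209% and 0.0217%. The Scarna genes, 9 in number, held 0.114% ± 0.0148 of the gene table counts, and the 42 Snora genes 0.0191% ± 0.00312. Replicate 1 had the largest Snord share in both tables. It also had the largest RNA input, and the part of input in this difference was not tested.

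Snord genes did not all shift together between libraries. Of 36 members with a mean of at least 10 estimated counts, 10 were highest in replicate 1, 10 in replicate 2 and 16 in replicate 3, while 18, 12 and 6 were lowest there. Snord17, Snord15b, Snord15a and Snord21 were highest in replicate 1, and Snord22 was lowest in it. Among members with at least 50 counts in every library, Snord21 had the largest spread, with an SD of log2 CPM of 0.61, against a median of 0.21 over 6403 genes within 2-fold of its mean. Snord15b followed with 0.51, against 0.16 over 3298 such genes. Snord71 had the smallest, 0.14 against 0.27 over 6997 genes, and Snord22 had 0.16 against 0.18. At lower counts Snord110, in an intron of Nop56, had 5, 10 and 54 counts, so that 1 library, replicate 3, made most of its mean of 0.798 CPM. Snord12, in Zfas1, had 0, 0 and 17.4 counts, and its call below the floor (edgeR, adjusted p = 0.0202) rests on libraries that differ that much.

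Members that take part in processing the ribosomal RNA precursor had very different counts. Of the 7 genes of that list, 2 (28.6%) were called above 1 CPM in the second tables, beside 34.3% of all annotated genes. Of the rest, 1 was called below it, beside 33.8% of all genes tested, 3 on neither side, and 1 was not tested. Snord22 was the highest, at 30.3 CPM. Snord118, which is needed for the large subunit RNAs, had 28, 32 and 36 counts, or 1.39, 0.948 and 1.23 CPM (1.19 ± 0.226), a log2 level of 0.24 over the floor (edgeR, adjusted p = 0.335). The gene tables listed 1, 0 and 0 counts for the same gene at effective lengths of 2.30, 1.54 and 1.93 bases, so its place against the floor depended on the table. Snord13 had 13, 15 and 24 counts, or 0.647, 0.444 and 0.822 CPM (edgeR, adjusted p = 0.0612). Snord118 and Snord13 lie within no annotated host on their strand. The origin of their reads was not tested. No gene with a symbol for U3 (Snord3) was among the 99.

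The U14 genes had different counts. Each lies wholly within a host transcript with which its reads can be shared, so these counts do not show how the RNAs themselves differ. Snord14d had 26.5, 60.6 and 73.1 estimated counts, or 1.32, 1.80 and 2.51 CPM (1.87 ± 0.598; edgeR, adjusted p = 0.00134). Snord14c, nearly its copy, had 21.5, 31.6 and 47.2 counts and 1.07, 0.936 and 1.62 CPM (edgeR, adjusted p = 0.302). Snord14e, in the same host, had 0, 1.63 and 0 counts, and Snord14a, in Rps13, had 0 in all libraries. The retained-intron transcript of Hspa8 that spans Snord14c, Snord14d and Snord14e held 1841, 1620 and 2733 estimated counts. Transcripts of Rps13 that cover Snord14a held 201, 402 and 311.

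In the Rpl13a set, known for a role in the response to lipid stress outside ribosomal RNA methylation, Snord32a alone was called above 1 CPM. Snord32a had 30, 75 and 92 counts, or 1.49, 2.22 and 3.15 CPM (2.29 ± 0.832; edgeR, adjusted p = 1.52e-04). Snord33 had 0.618, 0.714 and 0.866 CPM (edgeR, adjusted p = 0.133) and made no call. Snord35a had 0.547, 0.563 and 0.720 CPM (edgeR, adjusted p = 0.0386), and Snord34 had 0.299, 0.503 and 0.651 CPM (edgeR, adjusted p = 0.0145). Each of the 4 was highest in replicate 3 and lowest in replicate 1. Snord32a was above the other 3 in every library. The calls of Snord35a and Snord34 below the floor were lost without replicate 1, with adjusted p values of 0.0950 and 0.0537 in edgeR, and that of Snord35a also without either other library. With ribosomal RNA genes left out of the library sizes, the same test gave 0.175 for Snord35a and 0.0556 for Snord34 as adjusted p.

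The members of imprinted clusters were at 0. The list held 19 genes, 17 named Snord116 and Snord64 and Snord107, and 0 of 19 had a rounded count in either table. Mutations that remove this cluster are linked to Prader-Willi syndrome in humans, and its RNAs are best known from neurons. The 17 Snord116 genes are 94 bases long, and 14 of them are identical to another, so a read from one could not be placed. Their host Snhg14 had 611, 1136 and 1088 estimated counts, or 30.4, 33.6 and 37.3 CPM, over a long set of exons. Snord64 lies within a transcript of Gm38393 that held 28.8, 26.7 and 28.2 estimated counts. Snord107 lies within another transcript of Gm38393, which held 0 estimated counts in every library. The whole sequences of Snord116l9, Snord116l12 and Snord116l14 lie in no other annotated transcript. Matches of parts of them were not searched, so the limit of 3 counts given above may not hold for them. For Snord64 and the 14 identical Snord116 genes, whose reads can be shared with a host transcript or a copy, a 0 sets no upper limit.

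Gas5 is a noncoding host whose RNA is turned over during translation, and its retained-intron transcripts cover all of its members. Of 4 members in Gas5, 0 were called above 1 CPM in the second tables, beside 34.3% of all annotated genes. The call below it was made for 1, beside 33.8% of all genes tested. Snord47 had 17.3, 36.6 and 59.5 counts, or 0.861, 1.09 and 2.04 CPM (1.33 ± 0.625; edgeR, adjusted p = 0.143). One Snord80 gene had 1.90, 0 and 5.18 counts, while the other and Snord78 rounded to 0. Gas5 transcripts that cover Snord78 held 1041, 2111 and 1374 estimated counts, so reads can be shared with the host. The part of such sharing in these values was not tested. Gas5 itself had 68.1, 81.5 and 67.0 CPM. Snord22 was the only member in Snhg1. Genes under symbols other than Snord were left out of this and of the other counts of members per host.

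Whether a snoRNA had counts of its own went with whether an annotated transcript of another gene contains its sequence, identical snoRNA copies included. Of 48 members contained in no other transcript, 43 had a count in the second tables, with a median of 0.467 CPM. Of 51 contained in one, 21 had a count, with a median of 0 CPM, and without the Snord116 genes it was 21 of 37, with a median of 0.0273 CPM. Calls above 1 CPM were 9 of 48 and 4 of 51, beside 34.3% of all 55536 annotated genes. Without the Snord116 genes they were 9 of 45 (20%) and 4 of 37 (10.8%). The 4 contained members that were called are Snord15b, Snord22, Snord21 and Snord14d. Estimated counts were whole numbers within 0.01 in all libraries for 35 of the 38 uncontained members counted in every library, and for 0 of the 12 contained ones. Counts that are not whole numbers are estimates in which reads are shared between transcripts. For contained members at 0, such sharing was not tested.

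Examples of contained members at or near 0 were Snord95 and Snord96a in Rack1, Snord45b and Snord45c in Rabggtb, and Snord19 and Snord69 in Gnl3, none of which had a rounded count. In each of these hosts 0 of 2 members were detected. For the 3 members in 1810032O08Rik, 2 had a count, and all were at or below 0.0680 CPM. Reads of contained members can be shared with a host transcript, so these values are no measure of whether the finished snoRNAs are present. The part of such sharing in the values was not tested.

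Hosts were annotated for 96 members in 54 genes, with 57 members in protein-coding hosts and 39 in noncoding ones. Ribosomal protein genes and Rack1 hosted 24 members, of which 5 (20.8%) were called above 1 CPM in the second tables. Beside this stood 15.8% of the 57 members in protein-coding hosts, 13.1% of the 99 Snord genes and 34.3% of all annotated genes. Against its host, each called member was set as count per kb of its length over the host's count per kb of exon, with a minimum of 3 counts. Of the 12 called members with a host, 11 were above it in all libraries. The remaining one, Snord14d, was below Hspa8 in all on this scale, but on the TPM of the same tables its log2 ratios were -0.20, 1.11 and 0.32, so its direction depended on the scale. The median log2 ratio of the 12 was 2.06. These members were called on their counts in the same tables, and a high count also raises the ratio. A place above the host was thus favoured in advance by the choice of called members. The 38 members called below the floor had a median log2 ratio of -0.73. The ratio compares a short RNA with spliced and unspliced host fragments together.

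The largest excess was that of Snord15b over Rps3, with log2 ratios of 7.62, 6.10 and 6.70. Snord15a in the same gene had 5.53, 4.45 and 4.95. Rps3 itself had 13.6, 19.6 and 15.8 CPM, so that replicate 1 was the highest for both snoRNAs and the lowest for their host. Snord21 over Rpl5 had 5.57, 3.78 and 5.35, with replicate 2 the lowest. Snord22 over Snhg1 had 4.16, 4.48 and 4.40, the closest agreement of these. Snord17 over Snx5, a host of 169, 206 and 148 CPM, had 3.24, 2.41 and 2.78. Snord83b over Rpl3 had 0.36, 0.79 and 1.12. Snord14d against Hspa8 had -1.28, -0.14 and -0.63. Of the 38 members called below the floor, all with a host, 25 were below it in every library. Another 4 were above it in every library, of which Snord55 and Snord72 had more than 3 counts in each, while the ratios of Snord60 and Snord93 rest in part on the minimum of 3 counts.

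**Figure D4:**
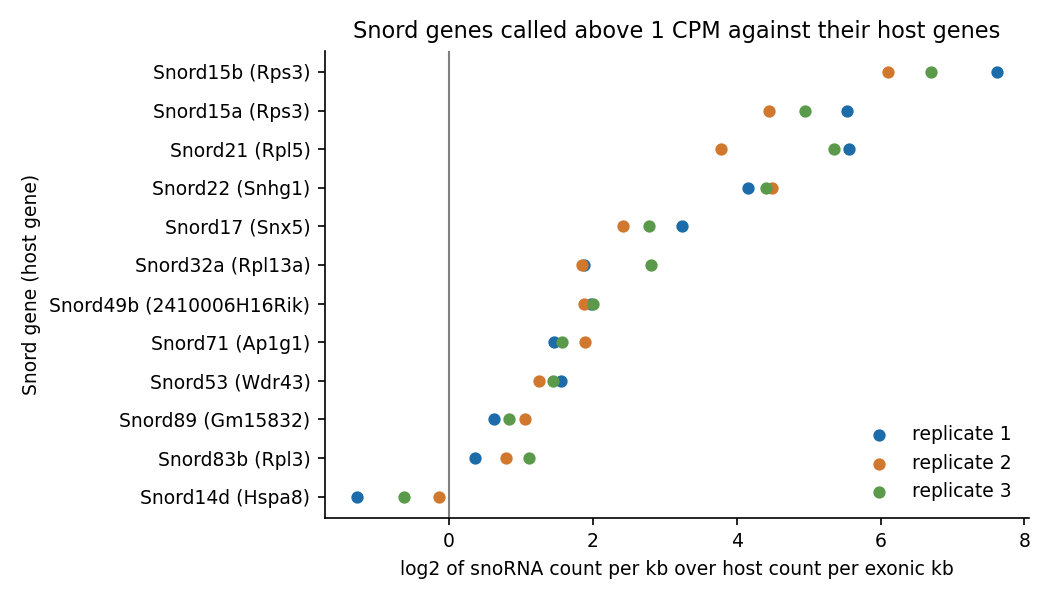
log2 of the snoRNA's count per kb over its host's count per exonic kb in the second transcript tables, 1 point per library, for the 12 called Snord genes with a host. Snord15b lies at 6.10 to 7.62 over Rps3 and Snord14d below 0 against Hspa8 in all 3 libraries, although on TPM it lies above 0 in replicates 2 and 3.

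Genes of the particle's proteins and of its assembly were nearly all present. In the gene tables, 19 of 20 were called above 1 CPM and 0 below, beside the 52.3% of all genes given above. All 5 core or U3-specific genes were called: Nop56 had 32.1, 39.7 and 40.9 TPM, Nop58 12.7, 13.3 and 21.03 TPM, the methyltransferase gene Fbl 7.38, 12.2 and 10.2 TPM, and Snu13 2.59, 4.24 and 3.62 TPM. Of 8 assembly genes 7 were called, and Znhit3 was not, at 0.838 CPM (edgeR, adjusted p = 0.574). In the second tables Znhit3 had a mean of 4.80 CPM. There 20 of the 20 genes were called above 1 CPM, beside 55.8% of all genes tested. Of the 7 genes for cap, transport and end processing, Xrn2, a nuclear exonuclease that trims RNA from the 5′ end, had 101, 85.7 and 75.9 TPM. Tgs1, which puts the trimethyl cap on some snoRNAs, had 72.0, 61.1 and 46.6 TPM. Nop56 and Nop58 also host snoRNAs: Snord57 and Snord110 in the first, and Snord11 and Snord70 in the second. Of these, 0 were called above 1 CPM in the second tables, beside 34.3% of all annotated genes.

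For 5 members a gene lies on the opposite strand (among them Snord42a, Snord4a, Snord8 and Snord60). Whether the counting used strand is not given in the sources used here, so their counts, 0 to 41 per library, may hold reads of the partner.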

How the data were processed

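Ribosomal RNA-depleted total RNA from the chromatin fraction was sequenced in 3 libraries of 1 group, per the labels. The gene tables hold expected counts and TPM, per the file headers, in the layout RSEM writes. The deposited second transcript tables hold estimated counts and TPM, in the layout kallisto writes. All use mm10 and annotation M21, per the deposited text files. The sources used here do not give the aligner, its version or the strand setting.

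Members were found by symbol in the second transcript tables, whose estimated counts were summed per gene. Counts were rounded, and 26345 rows naming no gene (1.04%, 0.425% and 0.401% of the total) were left out. Genes with a nonzero count were fitted with an intercept-only edgeR (4.0.16) quasi-likelihood model with TMM scaling. Its F test against 1 CPM was two-sided and was computed from the fit, with Benjamini-Hochberg adjustment over all genes and a threshold of 0.05. The gene tables were the main tables. Data were simulated over 24161 genes of the gene tables with a coefficient of variation of 0.3 beyond counting error. In them, 100% of 50 genes at 0.25 CPM were called below, and 2% of 50 at 1 CPM above and 2% below. At 2 CPM 80% of 50 were called above, and at 4 CPM 100% of 50. Total expected counts were 12532722 to 18395358. The limit of 3 counts taken for a 0 comes to 0.159 to 0.238 CPM in the gene tables. Intervals and limits cover counting error only. Hosts were the same-strand genes that contain a member. Boxes were searched in the annotated transcripts.

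Members and gene lists were chosen with earlier results of these data known. The named genes were the 15 with the highest mean CPM, the Rpl13a and precursor processing lists (1 member of the first is not reported here), the 3 highest of each other list, and members at the ends of spread, of table ratio and of host ratio. Snord110, Snord12, Snord43 and the members at 0 were named after their values were seen. R 4.3.3, limma 3.58.1, DESeq2 1.42.0 and python with numpy, pandas, scipy and biopython were used for the alternatives and tables.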

Additional observations from a re-analysis of the deposited data

How the results depend on the processing

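In the gene tables the same 4 members (Snord17, Snord15b, Snord22, Snord15a) were called above 1 CPM under DESeq2 size factors, total counts, library sizes without ribosomal RNA genes, the DESeq2 Wald test, limma on log2(CPM + 0.1), a mean count of at least 10, a floor of 5 CPM and without each replicate. On log2(TPM + 0.1) limma called 3, losing Snord22. The second tables called 13 above and 38 below, against 4 and 1. The 1 call below, Snord118, became 0 under the DESeq2 Wald test, limma on TPM, the mean count filter and without replicate 1 (0 to 1 over the replicates left out), and in the second tables the log2 level of Snord118 was 0.24, on the other side of the floor. Alternatives on the second tables were chosen after seeing the data, and all 13 members called above remained in each one except the floor of 5 CPM, which left 5 above and 58 below. Leaving out ribosomal RNA genes gave 17, adding Snord118, Snord14c, Snord47 and Snord49a, and leaving out replicate 1 added Snord47. A mean count of at least 10, which tested 36 members, gave 9 below. Leaving out replicates gave 13 to 14 above and 33 to 35 below. The DESeq2 Wald test was run with size factors near 1, set after larger ones had made no call below for any gene. The share of counts in the second tables was 0.0286% without ribosomal RNA genes, against 0.0238%. The median level was 0 in the gene tables and 0.116 CPM in the second. The median log2 ratio to the host was 4.75 for the 4 members of the gene tables and 9.38 for 3 of them on deposited TPM, where Snord22 has none in 2 libraries. In the second tables it was 2.06, and 2.81 on TPM. Of 199 other values for 28 named levels, 186 kept their direction and side of the threshold. No paired analysis was possible because there is 1 group. Members near 1 CPM can go without a call. Data were simulated over 34110 genes of the second tables with a coefficient of variation of 0.3 beyond counting error. In them, 86% of 50 genes at 2 CPM were called above. Depth was not varied there, and wider spreads were not simulated.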
